A study of Mus musculus with 24 samples.

Results

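Levels of 9 cytotoxic granule and effector genes were followed in 24 mouse pancreatic tumour libraries. The genes were Prf1, Gzmb, Gzma, Gzmk, Nkg7, Fasl, Ifng, Tbx21 and Eomes, chosen by symbol from the 54532 genes of the count table. The libraries formed 4 groups of 6, named LIGEL, IGEL, GEM and PBS, all taken on day 24, and PBS (phosphate-buffered saline) was the control. The labels do not expand the treatment names and give no dose, strain, age or tumour model, and the series title refers to losartan priming and a nanocarrier that joins chemotherapy with immunotherapy. Whether the replicates are separate mice is not in the labels, so the p-values below measure the spread between these samples, which may be partly technical.

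Killer T cells and natural killer (NK) cells store perforin, encoded by Prf1, and granzymes in granules that they release onto a target cell. Perforin opens the target membrane and granzymes, which are serine proteases, cut proteins inside it. Fas ligand, encoded by Fasl, kills through the Fas receptor on the target, and interferon gamma, encoded by Ifng, signals to surrounding cells to present antigen and attract more T cells. The T-box transcription factors Tbx21 (T-bet) and Eomes drive many of these genes in lymphocytes. In pancreatic tumours such cells are usually sparse and surrounded by dense stroma.

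Library totals ran from 27066563 to 40521434 counts, and levels are given as CPM, the counts relative to a TMM-scaled library total. The tissue field reads pancreatic tumour while the titles read muscle, and 7 skeletal muscle genes together reached 272 CPM in IGEL 4 and at most 23.7 CPM in each other library. Acinar enzyme genes, made by the normal exocrine pancreas, summed to 144 to 85332 CPM in LIGEL, 56.9 to 106298 CPM in IGEL, 60.2 to 211806 CPM in GEM and 3397 to 766700 CPM in PBS. PBS 5 stood apart, with 42.0% of its counts in those 16 genes and the lowest total. Ductal epithelial genes summed to 541 to 1689 CPM over all libraries. In 6 libraries, GEM 1, GEM 2, GEM 3, IGEL 1, LIGEL 1 and LIGEL 2, the count table's column is numbered A1, A2 or A3, each of which stands on 2 columns, unlike the other numbers, and PBS has no such library.

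The genes lie on 7 chromosomes of the mm10 build. Prf1 is at chr10:61297833-61304680 on the plus strand, and Ifng is on the same chromosome at chr10:118441046-118445892. Gzmb, at chr14:56258838-56262260 on the minus strand, belongs to a run of 7 granzyme genes, Gzmb to Gzmn, that spans 144.6 kb. Gzma (chr13:113093825-113100981) and Gzmk (chr13:113171608-113225908) share a 132.1 kb stretch. Nkg7 is at chr7:43437073-43438249, Fasl at chr1:161780689-161788495, Tbx21 at chr11:97098071-97115331 and Eomes at chr9:118478212-118486132.

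Promoter windows show where the genes whose levels moved together, or apart, carry letters of T-box and RUNX sites. Each window holds 250 bases before and 50 bases after the RefSeq transcription start on GRCm38.p6, printed 5′ to 3′ on the gene's strand. Capitals mark T-box letters AGGTGT, RUNX letters TGTGGT and AP-1 letters TGANTCA, searched on both strands. Prf1, Gzmc and Gzme are shown because their levels followed each other, Gzmb because it shares their cluster, and Nkg7 because it followed T cell genes. The windows are chr10:61297586-61297885 (plus strand) for Prf1, chr14:56234608-56234907 (minus) for Gzmc, chr14:56120576-56120875 (minus) for Gzme, chr14:56262285-56262584 (minus) for Gzmb and chr7:43436888-43437187 (plus) for Nkg7.
Prf1: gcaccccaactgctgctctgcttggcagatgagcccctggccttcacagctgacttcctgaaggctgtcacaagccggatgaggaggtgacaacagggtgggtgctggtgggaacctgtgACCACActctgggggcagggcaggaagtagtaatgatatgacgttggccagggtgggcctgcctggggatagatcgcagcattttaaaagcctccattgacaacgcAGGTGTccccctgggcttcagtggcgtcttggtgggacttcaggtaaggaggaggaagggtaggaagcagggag
Gzmc: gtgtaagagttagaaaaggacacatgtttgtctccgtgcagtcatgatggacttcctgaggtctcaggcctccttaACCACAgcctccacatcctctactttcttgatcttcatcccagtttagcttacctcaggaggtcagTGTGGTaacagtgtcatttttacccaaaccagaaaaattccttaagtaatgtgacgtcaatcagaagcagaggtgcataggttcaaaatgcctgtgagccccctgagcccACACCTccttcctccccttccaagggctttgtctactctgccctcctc
Gzme: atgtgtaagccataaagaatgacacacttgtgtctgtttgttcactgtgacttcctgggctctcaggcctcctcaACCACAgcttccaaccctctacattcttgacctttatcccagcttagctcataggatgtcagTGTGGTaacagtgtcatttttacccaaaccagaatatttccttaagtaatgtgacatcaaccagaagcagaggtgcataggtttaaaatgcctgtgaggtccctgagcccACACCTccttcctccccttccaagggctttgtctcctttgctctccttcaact
Gzmb: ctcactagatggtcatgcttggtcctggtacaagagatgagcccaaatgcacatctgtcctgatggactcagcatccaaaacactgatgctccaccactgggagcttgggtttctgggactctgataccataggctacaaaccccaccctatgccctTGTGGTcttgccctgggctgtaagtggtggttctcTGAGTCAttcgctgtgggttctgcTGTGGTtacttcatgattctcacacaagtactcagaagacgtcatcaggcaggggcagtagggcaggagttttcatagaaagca
Nkg7: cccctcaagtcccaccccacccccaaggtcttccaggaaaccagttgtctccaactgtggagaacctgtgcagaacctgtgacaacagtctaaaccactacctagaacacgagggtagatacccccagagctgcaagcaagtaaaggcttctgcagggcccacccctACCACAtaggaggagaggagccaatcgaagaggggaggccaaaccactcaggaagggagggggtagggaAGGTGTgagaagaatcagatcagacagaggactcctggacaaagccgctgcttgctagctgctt

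RUNX letters began at -130 in Prf1, at -174 and -108 in Gzmc, at -175 and -113 in Gzme, at -93 and -34 in Gzmb and at -83 in Nkg7, counted from the start site. The other paralogs searched carried RUNX letters at -174 and -112 in Gzmd, -195 and -133 in Gzmf and -190 and -128 in Gzmg. T-box letters began at -24 in Prf1 and -14 in Nkg7, at 3 in Gzmc and at -3 in Gzme. Gzmd, Gzmf and Gzmg, whose levels also followed Prf1 (r = 0.89, 0.91 and 0.90), held no T-box letters in their windows. Gzmb held no T-box letters in this window and was the only one of the 14 genes searched with AP-1 letters, at -58. RUNX letters stood in 4 of the 9 genes followed here (Prf1, Gzmb, Nkg7 and Gzma), and T-box letters also in 4 (Prf1, Nkg7, Gzma and Gzmk). Of 32851 mouse promoters of the same length, 16.8% held the RUNX letters, 13.7% the T-box letters and 7.81% the AP-1 letters. RefSeq starts need not match the gene intervals given above. The Gzmb window lies wholly before its gene interval and that of Gzmk well inside its own, so their positions depend on the annotation. All these matches are letters in a sequence and not measured binding.

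Gzmb was the most abundant of the 9 per length of transcript, with a median over the 24 libraries of 8.75 CPM per kb. Nkg7 followed with 6.05 CPM per kb, then Prf1 with 2.15, Eomes with 1.40, Gzmk with 1.08, Gzma with 0.978, Fasl with 0.815 and Tbx21 with 0.707 CPM per kb. Ifng came last at 0.0524 CPM per kb. The group mean was highest in IGEL for 7 genes and in LIGEL for Eomes and Ifng, and no group had a higher mean than the next one down at an adjusted p under 0.05 by edgeR. In bulk tumour RNA, fewer cells of a type and less RNA per cell cannot be told apart.

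**Figure D1:**
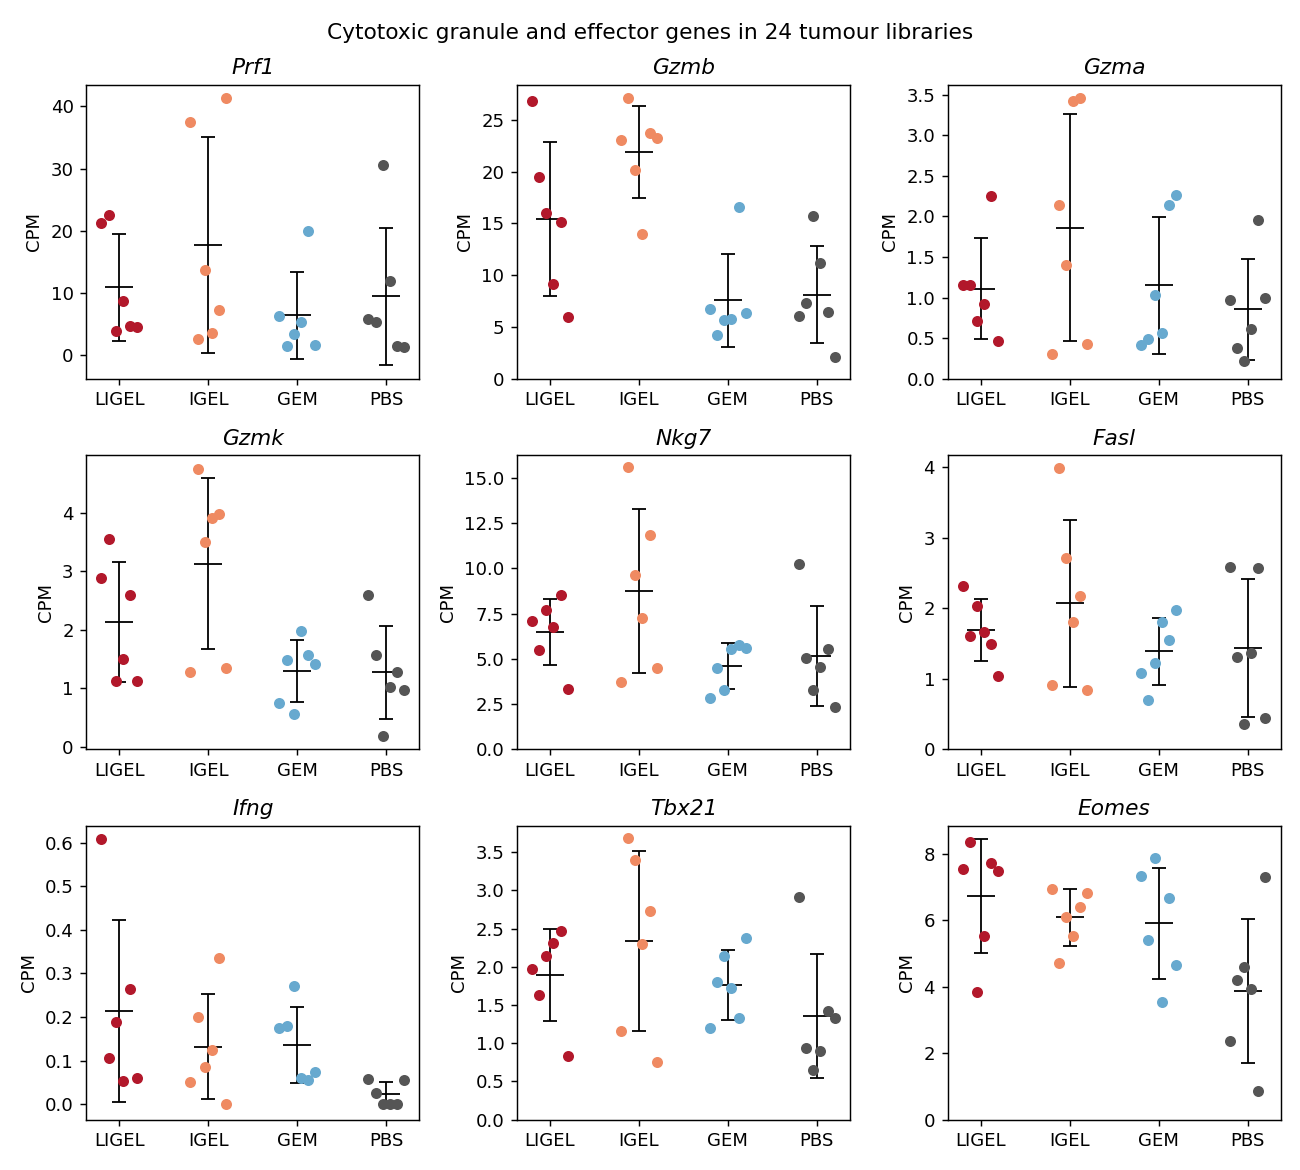
CPM of the 9 genes in each library, 1 point per library, with the group mean and bars of 1 SD (n = 6 per group). Gzmb in IGEL lies between 14 and 27.1 CPM, and GEM 5 and PBS 3 are the only GEM and PBS libraries above its lowest value, whereas Prf1 spreads from 2.54 to 41.3 CPM within IGEL alone.

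Prf1 varied most of the 8 tested genes between libraries, over a 31.7-fold range. Its lowest, median and highest levels were 3.84, 6.64 and 22.5 CPM in LIGEL and 2.54, 10.4 and 41.3 CPM in IGEL. In GEM they were 1.46, 4.34 and 19.9 CPM, and in PBS 1.30, 5.55 and 30.6 CPM. Every group held both low and high libraries, and all 4 groups overlapped. In LIGEL the mean was 10.9 ± 8.66 CPM and in PBS 9.37 ± 11.1 CPM (SD, n = 6 each), a log2 fold change of 0.21 ± 0.81 (SE, edgeR adjusted p = 0.908). IGEL averaged 17.6 ± 17.4 CPM, which gave 0.91 ± 0.81 against PBS (edgeR adjusted p = 0.570). GEM averaged 6.31 ± 6.95 CPM, which gave -0.58 ± 0.81 (edgeR adjusted p = 0.861). Without PBS 3, its highest control library, the value for LIGEL against PBS moved to 1.07, and without LIGEL 2 it was -0.14, so that no direction can be read from it. It was -0.82 without the A1 to A3 columns. For IGEL against PBS it was 1.77 without PBS 3 and 0.46 without IGEL 6.

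Gzmb, which starts the death programme by cutting caspases, had the largest log2 fold change of the 8 in IGEL against PBS. Its lowest, median and highest levels were 6.00, 15.6 and 26.9 CPM in LIGEL and 14, 23.2 and 27.1 CPM in IGEL. In GEM they were 4.26, 6.06 and 16.6 CPM, and in PBS 2.11, 6.88 and 15.7 CPM. All 6 IGEL libraries lay above the PBS median, and the ranges overlapped only through IGEL 4 at 14 CPM and PBS 3 at 15.7 CPM. The mean of 21.9 ± 4.46 CPM in IGEL stood against 8.13 ± 4.71 CPM in PBS, a log2 fold change of 1.43 ± 0.40 that did not pass (edgeR adjusted p = 0.306). Leaving out each of the 12 libraries in turn kept it between 1.23 and 1.73. LIGEL averaged 15.5 ± 7.43 CPM, 0.92 ± 0.39 above PBS (edgeR adjusted p = 0.190), and this value was 0.49 without the A1 to A3 columns. GEM averaged 7.56 ± 4.49 CPM, with -0.11 ± 0.39 against PBS (edgeR adjusted p = 0.948). IGEL exceeded GEM by 1.53 ± 0.40 (edgeR adjusted p = 1.0) and LIGEL exceeded GEM by 1.03 ± 0.39 (edgeR adjusted p = 0.999). Without the A1 to A3 columns these values were 1.17 and 0.28.

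Gzmk and Gzma, granzymes that cut after basic residues, were both scarcer than Gzmb per length of transcript. Gzmk ranged over 1.13, 2.05 and 3.56 CPM (lowest, median, highest) in LIGEL, 1.29, 3.71 and 4.76 CPM in IGEL, 0.570, 1.45 and 1.99 CPM in GEM and 0.191, 1.16 and 2.59 CPM in PBS. Of the IGEL libraries, 4 lay above every GEM and PBS value, while IGEL 1 and IGEL 6 did not. In LIGEL the libraries with A1 to A3 columns, LIGEL 1 and LIGEL 2, had 2.89 and 3.56 CPM of Gzmk. The rest of LIGEL had 1.13 to 2.60 CPM. In GEM and IGEL such libraries had the lower medians, 0.760 against 1.58 CPM in GEM and 1.29 against 3.92 CPM in IGEL. The log2 fold change was 0.75 ± 0.46 for LIGEL against PBS (edgeR adjusted p = 0.354), 1.30 ± 0.46 for IGEL against PBS (edgeR adjusted p = 0.306) and 1.27 ± 0.46 for IGEL against GEM (edgeR adjusted p = 1.0). Gzmk lies opposite Esm1 on the other strand and whether the counting used strand is not given, but the levels of Esm1 did not follow it (r = -0.11 over 24 libraries). Gzma averaged 1.11 ± 0.623 CPM in LIGEL, 1.86 ± 1.40 in IGEL, 1.15 ± 0.845 in GEM and 0.855 ± 0.623 CPM in PBS. In IGEL it split widely, with 0.303 CPM in IGEL 1 and 0.422 CPM in IGEL 6 against 3.42 CPM in IGEL 4 and 3.46 CPM in IGEL 5. Its log2 fold change in IGEL against PBS was 1.15 ± 0.61 (edgeR adjusted p = 0.359).

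Nkg7, a membrane protein of cytotoxic granules needed for their release, had its lowest, median and highest levels at 3.31, 6.95 and 8.52 CPM in LIGEL and 3.74, 8.45 and 15.6 CPM in IGEL. In GEM they were 2.84, 4.99 and 5.77 CPM, and in PBS 2.33, 4.79 and 10.2 CPM. IGEL 2 was the highest library and PBS 1 the third highest, so the control group reached well into the IGEL range. IGEL stood at 0.76 ± 0.35 against PBS (edgeR adjusted p = 0.314) and at 0.93 ± 0.35 against GEM (edgeR adjusted p = 1.0). LIGEL stood at 0.33 ± 0.35 against PBS (edgeR adjusted p = 0.599).

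Fasl was measured at 1.04, 1.64 and 2.31 CPM (lowest, median, highest) in LIGEL, 0.844, 1.99 and 3.98 CPM in IGEL, 0.693, 1.38 and 1.97 CPM in GEM and 0.355, 1.34 and 2.59 CPM in PBS. Its log2 fold change was 0.25 ± 0.44 in LIGEL (edgeR adjusted p = 0.775), 0.54 ± 0.44 in IGEL (edgeR adjusted p = 0.534) and -0.04 ± 0.44 in GEM (edgeR adjusted p = 0.986), each against PBS. The lowest control library, PBS 3, was also among the richest in Prf1. Tbx21 averaged 1.89 ± 0.596 CPM in LIGEL, 2.34 ± 1.18 in IGEL, 1.76 ± 0.456 in GEM and 1.36 ± 0.814 CPM in PBS. The IGEL group ran from 0.760 CPM in IGEL 6 to 3.68 CPM in IGEL 2, wider than LIGEL and GEM. Its log2 fold change against PBS was 0.48 ± 0.38 in LIGEL (edgeR adjusted p = 0.472), 0.79 ± 0.38 in IGEL (edgeR adjusted p = 0.331) and 0.37 ± 0.38 in GEM (edgeR adjusted p = 0.823).

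Eomes, the relative of Tbx21, had its highest group mean in LIGEL and its lowest in PBS. Its lowest, median and highest levels were 3.84, 7.51 and 8.35 CPM in LIGEL, 4.71, 6.25 and 6.95 CPM in IGEL, 3.53, 6.03 and 7.87 CPM in GEM and 0.877, 4.07 and 7.29 CPM in PBS. All 3 treated groups lay in 1 range, and PBS 5 and PBS 1, at 0.877 and 2.35 CPM, were the lowest of the 24 libraries. The log2 fold change against PBS was 0.79 ± 0.31 in LIGEL (edgeR adjusted p = 0.171), 0.64 ± 0.31 in IGEL (edgeR adjusted p = 0.335) and 0.60 ± 0.31 in GEM (edgeR adjusted p = 0.804). PBS 5 and PBS 1 held 42.0% and 6.35% acinar counts, and without both the values were 0.42 in LIGEL, 0.26 in IGEL and 0.23 in GEM. Acinar shares above that of PBS 1 were also found in LIGEL 4 (8.20%), IGEL 4 (10.1%) and GEM 6 (18.01%), where Eomes was at 5.51, 5.54 and 4.65 CPM. Over the 24 libraries Eomes correlated with the mean log2 CPM of the acinar genes at r = -0.61. It was -0.63 without the 2 libraries farthest from the median of that mean, and -0.58 for deviations from the group means. The cause of the low Eomes values was not tested.

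Ifng was too scarce for the expression filter, with 0 to 21 raw counts per library. The summed count was 47 in LIGEL (exact Poisson 95% interval 34.5 to 62.5), 29 in IGEL (19.4 to 41.6), 29 in GEM (19.4 to 41.6) and 5 in PBS (1.62 to 11.7), where the intervals cover counting error only. LIGEL 1 alone gave 21 of its group's counts, and 3 PBS libraries and IGEL 6 had none. The counts in GEM were 6, 7 and 10 in the 3 libraries with A1 to A3 columns and 2 in each of the other 3. In an edgeR fit of 35217 genes without the filter, the log2 fold change against PBS was 2.93 ± 0.90 in LIGEL (adjusted p = 0.222), 2.25 ± 0.90 in IGEL (adjusted p = 0.391) and 2.29 ± 0.90 in GEM (adjusted p = 0.611). Such values depend on the prior count, and 13.6% of the 50-base windows of its transcript also occur in a transcript of another gene, so the count itself is uncertain.

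No gene of the set passed edgeR's quasi-likelihood test at an adjusted p under 0.05 in any of the 6 comparisons. The same held for all 19253 genes tested, of which 0% were called when LIGEL, IGEL or GEM was set against PBS, and 0% in each pair of treated groups. For all genes this depended on the control libraries: without PBS 5 edgeR called 173 genes in LIGEL against PBS and 18 in IGEL against PBS, and without PBS 4 it called 2 in LIGEL against PBS, none of them among the 9. Against PBS, DESeq2 called 6.38% of genes for LIGEL and 0.239% for IGEL, and it called 0% in each of the other 4 comparisons, and none of the 8 tested members. Voom with sample quality weights called 3.78% in LIGEL, 1.99% in IGEL and 0.343% in GEM against PBS and 0% between treated groups, again with no member. At an unadjusted edgeR p under 0.05, 4 of the 8 were higher in IGEL than in PBS (Gzmb, Gzmk, Nkg7 and Tbx21), against 5.79% of all genes. In LIGEL against PBS 2 of the 8 were higher (Gzmb and Eomes), against 6.28% of all genes, and in GEM against PBS none was, against 1.92%.

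Between treated groups, 3 of the 8 were higher in IGEL than in GEM at an unadjusted edgeR p under 0.05 (Gzmb, Gzmk and Nkg7), where 0.878% of all genes were. Gzmb alone was higher in LIGEL than in GEM, where 0.831% of all genes were. In LIGEL against IGEL none was higher (0.426% of all genes) and none lower (0.831% of all genes), although 7 of the 8 log2 fold changes were negative. These ran from -0.74 ± 0.60 for Gzma to -0.29 ± 0.43 for Fasl, and that of Eomes was 0.15 ± 0.31 (edgeR adjusted p = 1.0 each).

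The median log2 fold change of the 8 genes was 0.44 for LIGEL (all genes -0.03), 0.85 for IGEL (all genes -0.02) and -0.01 for GEM (all genes -0.02), each against PBS. It was -0.47 in LIGEL against IGEL (all genes -0.02), 0.39 when LIGEL and 0.81 when IGEL was set against GEM (all genes -0.01 in both). The comparisons with PBS share the same 6 control libraries and are not independent of each other.

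**Figure D2:**
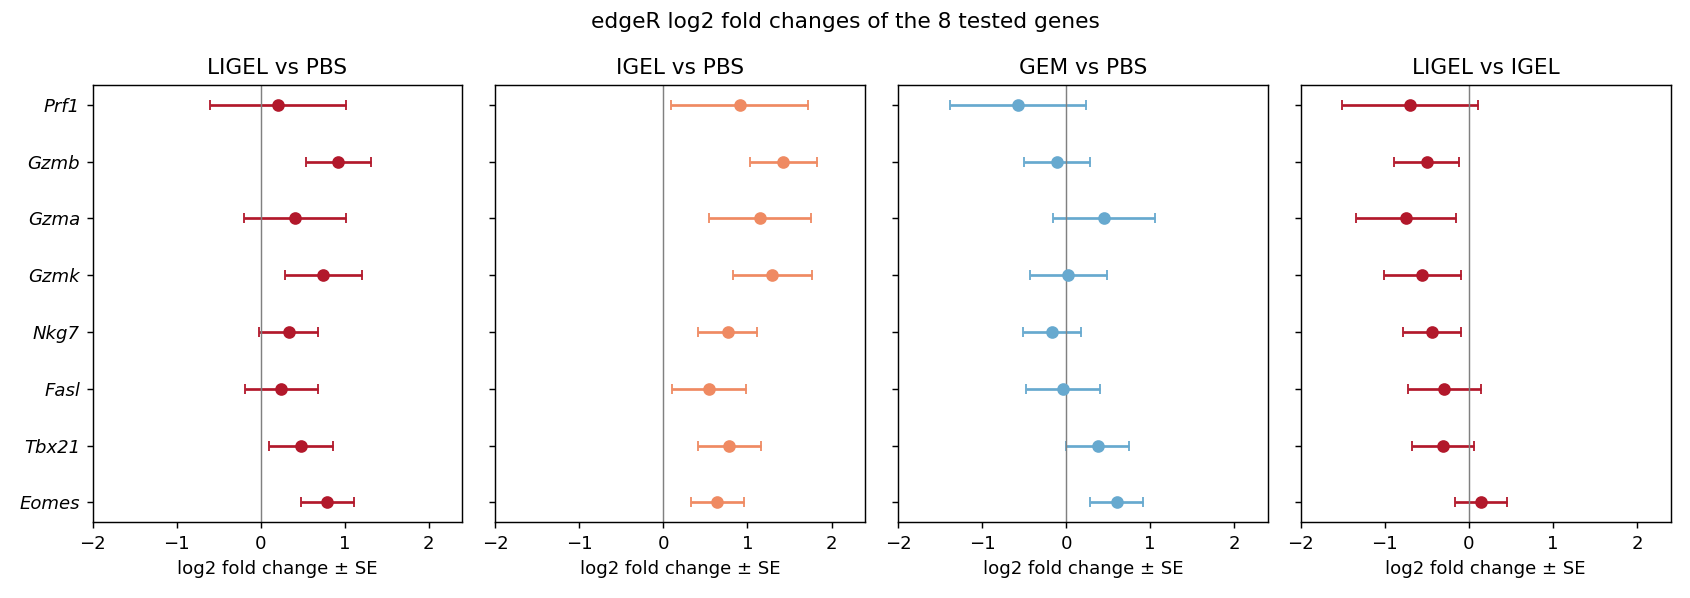
Log2 fold changes of the 8 tested genes from edgeR, with bars of 1 SE, in 4 comparisons (n = 6 per group). In IGEL against PBS all 8 lie to the right of 0, led by Gzmb at 1.43, while in GEM against PBS they scatter around 0 and in LIGEL against IGEL 7 lie to the left.

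T cell genes were set beside these values. None of them passed edgeR's test after adjustment. The 15 genes of the T cell receptor complex list, among them Cd3e, Cd3g, Cd8a and Cd4, were all measured, and none was at 0 in every library. Their sum was 50.1 to 133 CPM in LIGEL, 40.7 to 222 CPM in IGEL, 50.1 to 100.4 CPM in GEM and 34.2 to 151 CPM in PBS. At an unadjusted edgeR p under 0.05, 4 of the 15 were higher in LIGEL than in PBS, with a median log2 fold change of 0.63, and 9 of the 15 in IGEL than in PBS, with a median of 0.90. Of all genes, 6.28% were higher at that threshold in LIGEL and 5.79% in IGEL. When the T cell score of each library entered the model as a covariate, Nkg7 in IGEL against PBS was 0.05 and Gzmk 0.50, while Gzmb stayed at 1.42 and passed (edgeR adjusted p = 0.0466). Eomes then passed in LIGEL against PBS at 1.10 ± 0.33 (edgeR adjusted p = 0.0294). With that covariate edgeR called 16.6% of all genes between LIGEL and PBS and 10.5% between IGEL and PBS, so 1 of 8 genes called is near the share for all genes. Of the 24 alternative settings tried in each of these 2 comparisons, this was the only one in which a member was called.

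Of the 12 tested NK cell genes, 12 had positive log2 fold changes in LIGEL against PBS and 9 in IGEL against PBS, with 2 in each at an unadjusted edgeR p under 0.05. Of all genes, 46.5% had positive log2 fold changes for LIGEL and 47.1% for IGEL, and 6.28% and 5.79% were higher at that threshold. The list summed to 64.3 to 95.9 CPM in LIGEL, 75.5 to 103.1 CPM in IGEL, 57.8 to 87.6 CPM in GEM and 41.6 to 79.0 CPM in PBS, and its part in the levels above was not tested. Ncr1, which encodes the NK receptor NKp46, averaged 0.286 ± 0.379 CPM in LIGEL, 0.172 ± 0.120 in IGEL, 0.204 ± 0.190 in GEM and 0.104 ± 0.145 CPM in PBS. It was at 0 in 1 library of each treated group and in 2 PBS libraries. Il2rb, the receptor chain for interleukins 2 and 15 that both NK and activated T cells carry, averaged 18.4 ± 7.39 CPM in LIGEL, 21.4 ± 2.87 in IGEL, 13.4 ± 3.35 in GEM and 11.2 ± 4.17 CPM in PBS. Its values ran from 18.8 to 25.8 CPM in IGEL and from 6.54 to 18.2 CPM in PBS, with a log2 fold change of 0.93 ± 0.26 (edgeR adjusted p = 0.306). The share of all genes with ranges apart is not given here.

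Across the 24 libraries the 9 genes did not vary as 1 programme. Correlations below are of log2 CPM over the same 24 libraries, which share 1 scaling, and are given as descriptions. Nkg7 and Fasl went together (r = 0.83, rho = 0.87), as did Nkg7 and Gzmk (r = 0.78), Nkg7 and Tbx21 (r = 0.76) and Gzma and Tbx21 (r = 0.71). Prf1 followed none of these, with r = -0.04 to Nkg7, -0.06 to Gzmk, -0.16 to Fasl, -0.35 to Gzma and -0.37 to Tbx21. Its only close partner among the 9 was Gzmb (r = 0.68, rho = 0.62). Eomes stood apart from Tbx21 (r = -0.04), Nkg7 (r = -0.21) and Fasl (r = -0.34).

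**Figure D3:**
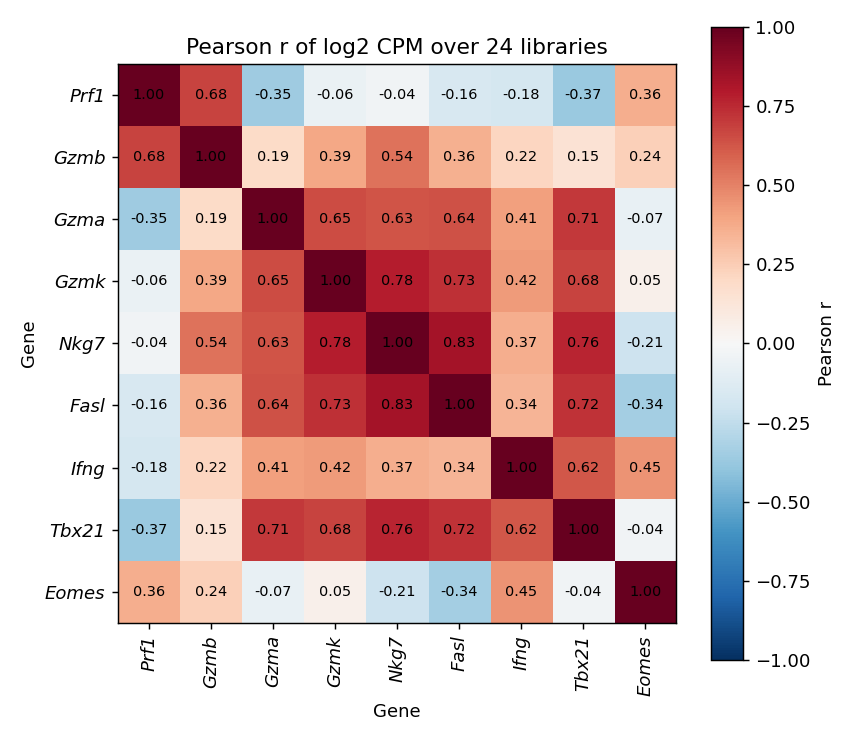
Pearson r of log2 CPM between each pair of the 9 genes over 24 libraries, from -1 in blue to 1 in red. Gzma, Gzmk, Nkg7, Fasl and Tbx21 form a red block with r from 0.63 to 0.83, and Prf1 is red only with Gzmb (0.68) and weakly with Eomes (0.36).

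The mean log2 CPM of the T cell receptor complex list tracked the same block. It correlated with Nkg7 at r = 0.88, Tbx21 at 0.87, Gzmk at 0.84, Fasl at 0.79 and Gzma at 0.69, but with Gzmb at 0.36, Eomes at -0.01 and Prf1 at -0.17. Among 13117 genes searched, the closest to Nkg7 were Cd8a (r = 0.93), Ctsw (0.91) and Cd3g (0.91), the first and last being T cell genes and Ctsw a protease of T and NK cells. The closest to Tbx21 were Cd3e (0.91), Lck (0.89) and Gimap4 (0.86), and those to Fasl were Cd3g (0.90), Cxcr6 (0.85) and Ctsw (0.85). Gzmk was closest to Sept1 (0.83), Sh2d2a (0.83) and Cd2 (0.83), and Gzma to Gimap4 (0.80), Gimap7 (0.79) and the T cell attracting chemokine Cxcl9 (0.79). Ifng, at very few counts, was closest to Carmil2 (0.76), Kmo (0.75) and Gpr171 (0.70).

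Prf1 had other neighbours. Of the 13117 genes its 3 closest were Gzme (r = 0.93, rho = 0.93), Gzmc (r = 0.93, rho = 0.91) and Gzmf (r = 0.91, rho = 0.92), which lie on another chromosome, beside Gzmb. The summed CPM of Gzmc, Gzmd, Gzme, Gzmf and Gzmg correlated with Prf1 at r = 0.93 (rho = 0.93), at 0.92 without the 2 libraries farthest from the median, and at 0.94 for deviations from the group means. For Gzmb that sum gave r = 0.62, for Nkg7 -0.17, for Gzma -0.43 and for Tbx21 -0.45. The paralogs share sequence, with 19.4% to 21.9% of 50-base windows of Gzmd, Gzme, Gzmf and Gzmg and 4.14% of Gzmc found in another gene, so their single levels are uncertain and the sum is used. Prf1 and Gzmb share no such window with any other gene.

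IGEL 6, IGEL 1 and PBS 3, the libraries richest in Prf1, were poor in T cell transcripts, but those next in order were not. The first had 41.3, 37.5 and 30.6 CPM of Prf1 and 346, 315 and 225 CPM of the 5 paralogs. Their mean over Cd3d, Cd3e and Cd3g was only 1.99, 1.90 and 1.29 CPM. IGEL 2 was the reverse, with 12.1 CPM of the CD3 genes, 2.54 CPM of Prf1 and 3.31 CPM of the paralogs. LIGEL 1 and LIGEL 2 had both, with 21.1 and 22.5 CPM of Prf1 beside 5.59 and 6.70 CPM of the CD3 genes. GEM 5 and IGEL 3 likewise had 19.9 and 13.7 CPM of Prf1 beside 4.41 and 6.96 CPM of the CD3 genes. The r of Prf1 to the T cell list was -0.17, and 0.02 without the 2 libraries farthest from the median of the list. The ratio of Prf1 to the CD3 mean thus ran from 0.210 to 23.7 over all libraries, whereas that of Nkg7 ran only from 0.819 to 2.51. Gzmb in IGEL was as high in the T cell poor libraries IGEL 1 and IGEL 6 (23.1 and 23.3 CPM) as in the T cell rich IGEL 2 and IGEL 5 (27.1 and 23.7 CPM).

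**Figure D4:**
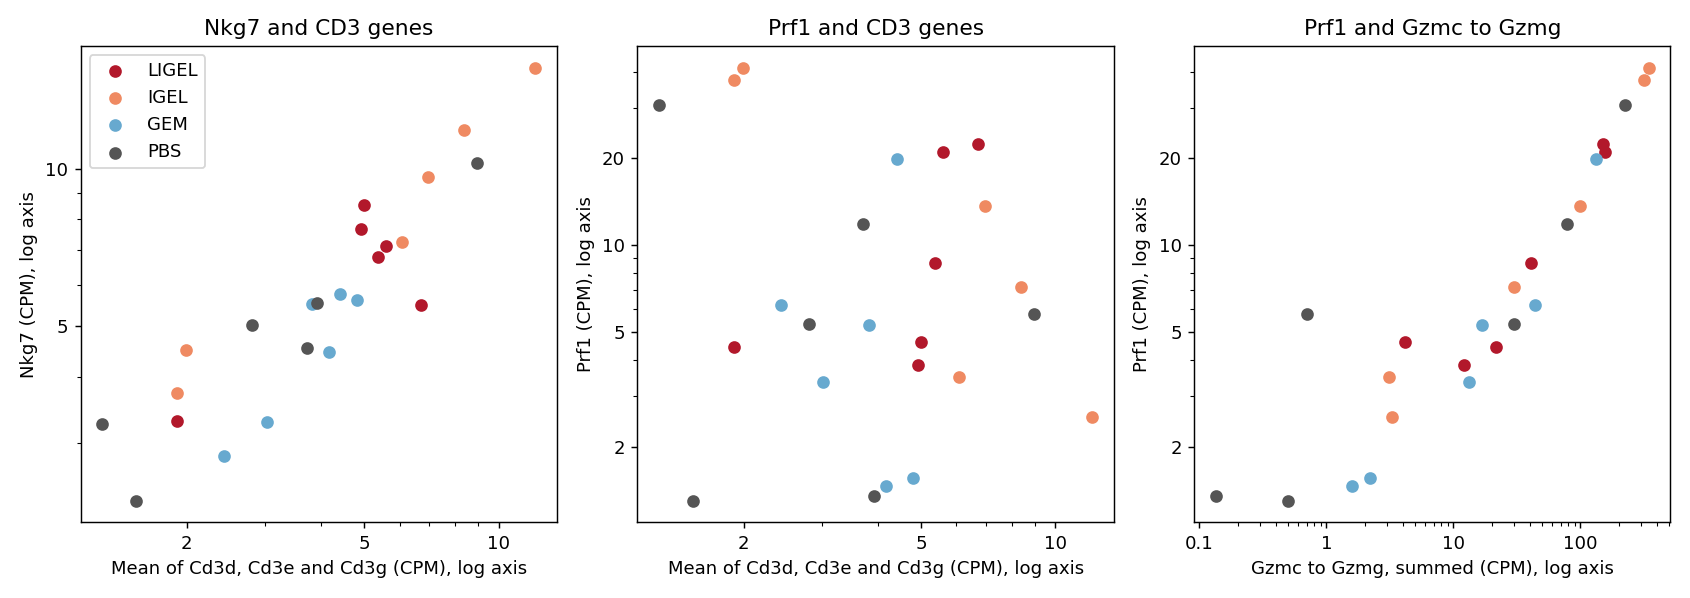
Left and middle, Nkg7 and Prf1 against the mean CPM of Cd3d, Cd3e and Cd3g; right, Prf1 against the summed CPM of Gzmc to Gzmg, all on log axes with 1 point per library. Nkg7 climbs with the CD3 genes, Prf1 shows no such line, and Prf1 climbs with the paralogs up to IGEL 6 at 346 and 41.3 CPM, with PBS 1 (0.706 and 5.77 CPM) off the line.

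Other cell type markers were examined beside this pattern. Prf1 correlated with the NK list at r = 0.15, the mast cell list at 0.43, the macrophage list at -0.35, the neutrophil list at -0.22, the ductal list at -0.56, the plasmacytoid dendritic cell list at -0.58 and the acinar list at -0.65. In IGEL 6, IGEL 1 and PBS 3 Ncr1 was at 0.253, 0 and 0.0547 CPM and Klrb1c, another NK receptor, at 0.0844, 0.0253 and 0.219 CPM. The whole NK list summed to 77.4, 80.1 and 51.9 CPM in these libraries. Tyrobp, Klra4 and Il2rb were its most abundant genes by group mean, and Il2rb was at 20.3, 18.8 and 13.3 CPM in these libraries. Over all 24 libraries Prf1 correlated with Il2rb at r = 0.54, with Ncr1 at -0.08 and with Klrb1c at -0.24. The 9 mast cell genes summed to 11.7 to 24.96 CPM in LIGEL, 14.8 to 38.6 in IGEL, 14.5 to 37.8 in GEM and 12.4 to 75.9 CPM in PBS, and none was at 0 in every library. Kit made up much of that sum and reached 72.9 CPM in PBS. Mcpt4 averaged 1.08 CPM in LIGEL, 1.37 in IGEL, 0.497 in GEM and 0.641 in PBS, and Cpa3 0.706, 1.10, 0.648 and 0.759 CPM. Mcpt4 and Cpa3 correlated with Prf1 at r = 0.59 and 0.26 and with Gzmb at 0.63 and 0.40. Hdc and Kit, of the same list, were highest in PBS. Hdc averaged 1.73 CPM in LIGEL, 2.62 in IGEL, 3.11 in GEM and 3.61 in PBS, and Kit 11.1, 12.8, 18.3 and 24.0 CPM. Of 7 tested mast cell genes, 4 were higher and 3 lower in LIGEL than in PBS, and 5 and 2 in IGEL. At an unadjusted edgeR p under 0.05, 2 were lower in LIGEL and 1 higher in IGEL, where 14.2% and 5.79% of all genes were. The whole mast cell list correlated with Gzmb at 0.51, and the ductal list with Gzmb at -0.69. Of the 8 ductal genes, 5 were lower in LIGEL and 6 in IGEL than in PBS. Their median log2 fold changes were -1.04 and -0.88. Of these genes 4 and 3 were lower at an unadjusted edgeR p under 0.05, against 14.2% and 9.25% of all genes. The sum of the list had its median at 1033 CPM in LIGEL, 990 in IGEL, 1210 in GEM and 912 in PBS. The acinar list was lowest in IGEL 6 (56.9 CPM), GEM 1 (60.2 CPM) and IGEL 1 (86.4 CPM). With the acinar score as a covariate the log2 fold change of Prf1 in IGEL against PBS was -0.20 in place of 0.91. The part of other cell types in the Prf1 and Gzmb levels was not tested beyond these values.

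**Figure D5:**
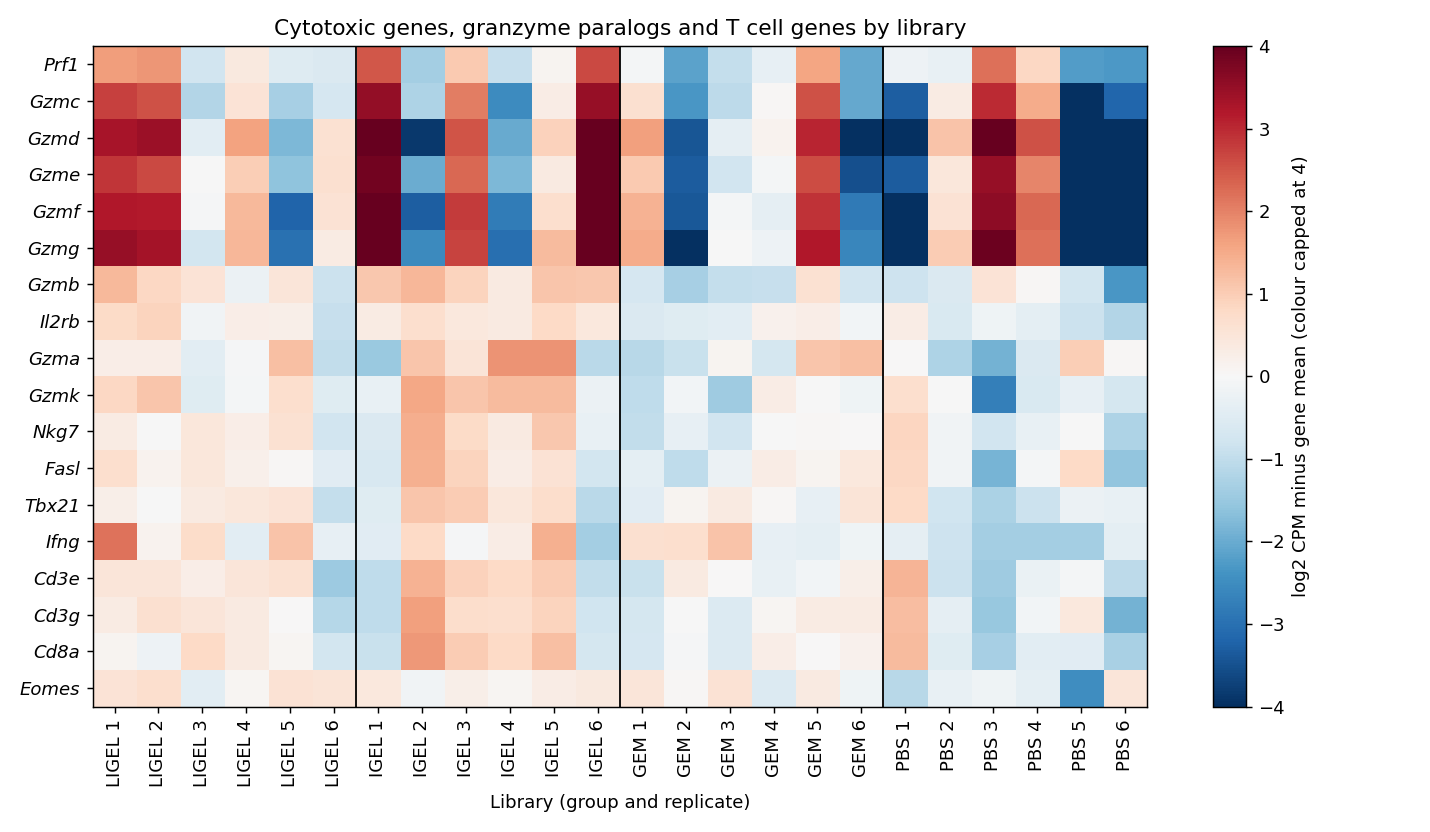
Log2 CPM of 18 genes in the 24 libraries, minus the mean of each gene, red above and blue below and capped at 4. Prf1 and Gzmc to Gzmg are red in the same columns (LIGEL 1, LIGEL 2, IGEL 1, IGEL 6, GEM 5 and PBS 3), while Gzma, Gzmk, Nkg7, Fasl and Tbx21 follow Cd3e, Cd3g and Cd8a more closely, for example in IGEL 2.

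Gzmb and Eomes each had neighbours outside the lymphocyte genes. Gzmb was closest to Kmt2a (r = 0.84), Chd6 (0.84) and Ebf4 (0.83), the first of which encodes a histone methyltransferase and the second a chromatin remodeller. Of the genes listed for the pathway it was closest to Il2rb (r = 0.81, rho = 0.79). Among the genes closest to Eomes were Nras (r = 0.95, rho = 0.85) and Capza1 (r = 0.94, rho = 0.81), widely expressed genes, and without the 2 libraries farthest from the median of Eomes r was 0.83 for Nras and 0.79 for Capza1. Eomes overlaps Gm33460 on the other strand, which reached at most 0.818 CPM.

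The wider pathway was described through 4 lists. Of 23 tested genes of granule content and release, 17 were higher and 6 lower in LIGEL than in PBS and likewise in IGEL than in PBS, with 0 and 2 higher at an unadjusted edgeR p under 0.05 and 1 lower in each. Of all genes, 46.5% for LIGEL and 47.1% for IGEL had log2 fold changes above 0. At that threshold 6.28% and 5.79% were higher and 14.2% and 9.25% lower, and the granule counts at that threshold are near or below these shares. The lower gene was Gzmm, a granzyme of NK and innate-like T cells, at 0.434 ± 0.169 CPM in LIGEL, 0.338 ± 0.127 in IGEL, 0.487 ± 0.195 in GEM and 0.795 ± 0.298 CPM in PBS. Its log2 fold change was -0.87 ± 0.36 in LIGEL (edgeR adjusted p = 0.180) and -1.22 ± 0.36 in IGEL (edgeR adjusted p = 0.306), against PBS and opposite in sign to Gzmb. Of 12 death ligand and receptor genes, 7 were higher in LIGEL than in PBS and 8 in IGEL than in PBS. In GEM against PBS the higher genes numbered 13 of the 23 granule genes, 8 of the 12 death ligand and receptor genes, 14 of 18 interferon gamma pathway genes and 15 of 21 effector factors, where 46.5% of all genes were higher. Fas, the receptor of Fas ligand, averaged 3.27 ± 0.789 CPM in LIGEL against 5.91 ± 3.28 CPM in PBS, a log2 fold change of -0.85 ± 0.33 (edgeR adjusted p = 0.170).

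Of 18 interferon gamma pathway genes, 17 were higher in LIGEL than in PBS and 18 in IGEL than in PBS, with 6 and 7 at an unadjusted edgeR p under 0.05 and medians of 0.35 and 0.48 on the log2 scale. Among all genes 46.5% were higher in LIGEL and 47.1% in IGEL, with 6.28% and 5.79% at that threshold. Cxcl9 averaged 24.2 ± 17.54 CPM in LIGEL, 35.8 ± 32.9 in IGEL and 10.2 ± 3.77 CPM in PBS. Its log2 fold change in IGEL against PBS was 1.82 ± 0.63 (edgeR adjusted p = 0.306). Irf1, a transcription factor induced by interferon gamma, averaged 76.5 ± 11.9 CPM in LIGEL, 79.8 ± 24.1 in IGEL and 61.5 ± 3.67 CPM in PBS, with log2 fold changes of 0.31 ± 0.15 in LIGEL and 0.38 ± 0.15 in IGEL against PBS (edgeR adjusted p = 0.234 and 0.306). Of 21 effector transcription factors and inducers, 16 were higher in each of LIGEL and IGEL than in PBS. At an unadjusted edgeR p under 0.05, 5 were higher in LIGEL and 7 in IGEL, against 6.28% and 5.79% of all genes. At the same threshold 2 were lower in LIGEL and 0 in IGEL, against 14.2% and 9.25% of all genes. Runx3, a factor that promotes killer T cell genes and is also made by other leukocytes, averaged 24.7 ± 5.51 CPM in LIGEL, 20.4 ± 7.85 in IGEL, 17.7 ± 2.44 in GEM and 12.4 ± 4.34 CPM in PBS. Its values ran from 16.9 to 33.7 CPM in LIGEL and from 4.39 to 15.9 CPM in PBS, with a log2 fold change of 0.99 ± 0.26 (edgeR adjusted p = 0.124). The share of all genes with ranges apart is not given here, so these ranges cannot be called unusual.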

How the data were processed

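RNA from 24 pancreatic tumour samples was sequenced, and the authors deposited raw read counts per gene, made with HISAT2 and featureCounts of Subread on mm10, per the submitters' processing notes. For the tool versions, the annotation and the strand setting the entry is: not given in the sources used here. Besides counts, the deposited table holds a gene length in bases. Of 54532 genes, 54495 were found in GENCODE M21, 53548 of them with identical coordinates.

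Groups came from the sample titles and columns from the sample descriptions. The genes followed and all lists were chosen with earlier results of these data known. Genes were kept by filterByExpr of edgeR 4.0.16 (minimum count 10, minimum total 15), which left 19253 genes and removed 0.0666% of counts. Totals were scaled by TMM, and a robust quasi-likelihood fit in R 4.3.3 gave each group its own mean over all 24 libraries. P-values were adjusted by Benjamini-Hochberg over all genes kept, and a gene was called at an adjusted p under 0.05. Log2 CPM used a prior count of 2. Genes named outside the 9 came from a written list of lymphocyte, granule, death receptor and interferon genes, and from the 3 genes most correlated with each of the 9 among those averaging at least 1 CPM. One of these genes is not reported here. DESeq2 1.42.0, voom of limma 3.58.1 and the other alternatives are described in the closing section. The test was checked on simulated counts. No 2 libraries held identical columns, and their highest correlation was 0.983. Promoter sequences are from RefSeq (GRCm38.p6), in which all 9 genes were matched.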

Additional observations from a re-analysis of the deposited data

Results flagged for a closer look

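Of 36 sets of 6 values (9 genes in 4 groups), 4 held a library far from the rest by Dixon's criterion, applied to CPM. The criterion assumes normally spread values, and high values stand out more on CPM than on log2 CPM. The 4 were therefore not compared with a chance rate. Prf1 was at 30.6 CPM in PBS 3, where the next PBS library had 11.9 CPM. Prf1 was at 19.9 CPM in GEM 5 and the next GEM library at 6.20 CPM. Gzmb was at 16.6 CPM in the same library, GEM 5, and at 6.76 CPM in the next. Tbx21 was at 2.91 CPM in PBS 1, where the next PBS library had 1.42 CPM. PBS 3 and GEM 5 were also the libraries of their groups with the most Gzmc to Gzmg, at 225 and 132 CPM summed, and PBS 1 had the highest CD3 mean of its group, at 8.96 CPM.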

How the results depend on the processing

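Over the 6 comparisons and their alternative settings, 141 in all, the count of the 9 genes called was 0 in 139. It was 1 in IGEL against PBS (Gzmb) and 1 in LIGEL against PBS (Eomes) with the T cell score as a covariate. Of the single log2 fold changes, 1058 kept their direction and side of the threshold, 2 passed it and 68 changed sign, none of them past the threshold. With the T cell covariate the values that changed sign were, in LIGEL against PBS, Gzma -0.53, Nkg7 -0.21, Fasl -0.30 and Tbx21 -0.0792, in IGEL against PBS Gzma -0.18 and Fasl -0.20, in GEM against PBS Gzma -0.0115 and Gzmk -0.20, in LIGEL against IGEL Prf1 0.0388, in LIGEL against GEM Fasl -0.11 and Tbx21 -0.28, and in IGEL against GEM Gzma -0.17, Fasl -0.0074 and Tbx21 -0.13. Without the A1 to A3 columns they were Prf1 -0.82 in LIGEL against PBS, Gzmb 0.21, Nkg7 0.11 and Fasl 0.29 in GEM against PBS, and Gzmk -0.0507, Prf1 -0.73 and Fasl -0.18 in LIGEL against GEM. With a term for those columns they were Prf1 -0.23 in LIGEL against PBS, Nkg7 0.0780 and Fasl 0.15 in GEM against PBS and Gzma 0.0021 in LIGEL against GEM. Without PBS 1 and PBS 5 they were Prf1 -0.20 in LIGEL against PBS and Nkg7 0.26 and Fasl 0.65 in GEM against PBS. With the acinar covariate they were Prf1 -0.32 in LIGEL and -0.20 in IGEL against PBS, Nkg7 0.0456 and Fasl 0.31 in GEM against PBS and Gzma 0.0325 in LIGEL against GEM. Voom gave Prf1 -0.0731 in LIGEL against PBS, Fasl 0.38 in GEM against PBS, Eomes -0.0643 in IGEL against GEM and Gzma 0.0077 in LIGEL against GEM. Without a composition factor Fasl was 0.14 in GEM against PBS and Gzma 0.0320 in LIGEL against GEM, and the all-gene median of LIGEL against PBS moved to 0.10 in place of -0.03. The cause of these changes was not tested.

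Leaving out 1 library at a time, values whose sign changed ran from -0.14 to 1.07 for Prf1 in LIGEL against PBS and from -1.39 to 0.29 for Prf1, -0.50 to 0.19 for Gzmb, -0.20 to 0.37 for Gzmk, -0.32 to 0.15 for Nkg7 and -0.24 to 0.23 for Fasl in GEM against PBS. They ran from -0.45 to 0.0026 for Fasl in LIGEL against IGEL, from -0.0698 to 0.14 for Eomes in IGEL against GEM and from -0.38 to 0.25 for Gzma in LIGEL against GEM. Same-numbered samples did not deviate together (median r = -0.05 over 36 pairs, from -0.68 to 0.71, and 6 of 24 libraries were closest to their own number). No pairing by number was seen, which does not exclude a weak pairing. With the replicate block Fasl was 0.14 in GEM against PBS and no call changed. Over all genes, without PBS 5 edgeR called 173 genes in LIGEL and 18 in IGEL against PBS, and without PBS 1 and PBS 5 together it called 521 genes in LIGEL, 692 in IGEL and 119 in GEM against the remaining PBS libraries, none of them among the 9. Counts limit Ifng most, at 110 counts in all.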
